A study of Rattus norvegicus with 132 samples.

Results

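Myc and 39 genes of ribosome biogenesis were followed through rat colon and jejunum epithelium after abdominal irradiation. The 40 genes were chosen by symbol, and 39 of them have a row among the 21837 genes of the deposited counts. Dkc1 has no row under that symbol and was not analysed here. Mybbp1a held 0 counts in every library but 1, an injected vehicle colon library with a single count, so it did not pass the filter on low counts. The other 38 passed in both tissues and had counts in every library.

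Sprague Dawley rats, an outbred laboratory strain, gave 132 RNA libraries in 22 groups of 6, which the labels call biological replicates. Non-irradiated rats received no treatment. All other rats were irradiated on the abdomen in 5 fractions of 4 Gy, given between day 0 and day 4, and epithelium was collected at a time labelled day 4 or day 7. The irradiated groups were untreated rats, rats given water by mouth (oral vehicle), rats given compound Kushen powder by mouth, rats given Tween-80 at 0.25% with HEPES at 25 mM intraperitoneally (injected vehicle) and rats given compound Kushen injection intraperitoneally. Powder and injection are preparations of the same name, and some sample descriptions call the powder a pill. No non-irradiated group received a vehicle or a preparation. The labels name no individual rats, so p-values measure the spread between these libraries, and the labels do not say whether colon and jejunum libraries came from the same rats.

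A ribosome is built in the nucleolus. RNA polymerase I transcribes the ribosomal RNA precursor, small nucleolar ribonucleoproteins guide its modification, the small subunit processome and the large subunit assembly factors fold and cut it, and late factors finish the subunits. Myc is a transcription factor that pairs with Max on the DNA letters CACGTG, the E-box, and it is known to raise genes of every step of this pathway. In the gut the crypts, where cells divide, are known for high Myc and high ribosome production, and the cells that leave the crypt are known to lose both.

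The E-box was searched in RefSeq promoters of rat build GRCr8 (250 bases before to 50 bases after the start of each gene). That build is not the one named for the counts, so the coordinates below belong to GRCr8 only. Of the 39 members with counts, 35 had an entry, and Myc, Bop1, Rrs1 and Wdr43 had none. CACGTG reads the same on both strands, so 1 search covers both. It was found in 14 of the 35 promoters (40%), against 6.42% of all 33469 promoters and 7.02% of 21851 protein-coding ones. The motif holds a CG, and the member promoters were rich in CG, with a median of 23 per promoter against 11 for protein-coding genes. Among protein-coding promoters with at least 10 CG, 10.4% held the motif. With only the bases before the start, the share was 22.9% of the member promoters and 5.59% of all. Of 26 promoters of other genes listed as Myc targets 30.8% held it, all before the start, of 91 promoters of other biogenesis genes 23.1%, and of 63 promoters of cytosolic ribosomal proteins 7.94%. The exact 95% binomial intervals of the members (23.9 to 57.9%), the other Myc targets (14.3 to 51.8%) and the other biogenesis genes (14.9 to 33.1%) overlap. A match says that the letters are there, and binding was not measured. The 9 windows shown, of processome, late small subunit, nucleolar and box C/D members, let the bases around the motif be compared, in lower case with the E-box in capitals, read 5′ to 3′ on the gene's strand. The first 5 lie wholly before the start and the last 4 span up to 30 bases around or after it.
Utp20 (chr7:25102944-25103003, minus strand): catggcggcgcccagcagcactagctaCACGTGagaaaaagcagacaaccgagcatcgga
Wdr75 (chr9:55395045-55395104, plus strand): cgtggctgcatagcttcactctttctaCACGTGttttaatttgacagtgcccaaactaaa
Ltv1 (chr1:9398586-9398645, minus strand): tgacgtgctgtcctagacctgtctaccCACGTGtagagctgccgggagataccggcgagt
Gnl3 (chr16:6219783-6219834, minus strand): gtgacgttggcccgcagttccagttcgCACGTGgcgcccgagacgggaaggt
Utp4 (chr19:51702189-51702240, plus strand): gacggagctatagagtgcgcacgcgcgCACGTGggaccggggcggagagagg
Fbl (chr1:92597416-92597445, plus strand): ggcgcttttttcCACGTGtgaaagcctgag
Tsr1 (chr10:60258798-60258827, plus strand): gtttactcggtgCACGTGggcagttagaat
Rrp12 (chr1:250655298-250655327, minus strand): gctgagaatacaCACGTGggttctgctgtg
Pno1 (chr14:95819885-95819914, minus strand): ggcacaacctcgCACGTGttccagtggttg

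Library totals ran from 17.2 to 19.8 M counts. Levels are given as CPM, a gene's counts per M counts of its library, scaled with TMM factors over all 132 libraries, and they compare samples within a gene, not genes with each other, since gene lengths were not used. Differences are log2 differences from edgeR's quasi-likelihood test with their standard error (SE), and a gene is called higher or lower at a p under 0.05 after Benjamini-Hochberg adjustment, which always covered the whole table of tested genes. All 7 epithelial markers (Epcam, Cdh1, Vil1, Krt8, Krt18, Krt20 and Cldn7) were present, with a summed level of 11740 to 14400 CPM in non-irradiated colon and 22930 to 30690 CPM in non-irradiated jejunum. Jejunal absorption genes summed to 69790 to 85520 CPM in non-irradiated jejunum and 1591 to 3433 CPM in colon, and 5 colon markers to 17130 to 21310 CPM in non-irradiated colon and 869.9 to 1119 CPM in jejunum. In irradiated untreated colon the colon markers summed to 910.1 to 9663 CPM at day 4 and 555.7 to 5668 CPM at day 7. In jejunum, replicate 2 of untreated irradiated rats at day 4 lay at or below the highest non-irradiated library for 37 of the 38 members, and results that rest on it are given with and without it. The first digit of the library names divides the oral, untreated and non-irradiated groups into 3 libraries of series 1 and 3 of series 2, and the labels do not say what it stands for.

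In the non-irradiated rats, the question is how far the epithelia of the 2 tissues differ in these genes. Of 38 members 35 were lower in jejunum than in colon and 0 higher, where 71.5% of 13741 genes were called, 41.6% lower and 29.9% higher. The median difference of the members was -1.61, against -0.21 over all genes tested. Myc stood at 22.95, 25.91, 22.13, 14.15, 15.92 and 14.96 CPM in the 6 colon libraries and at 1.92, 4.38, 2.95, 1.24, 2.17 and 4.95 CPM in the 6 jejunum libraries. The ranges did not overlap, and Myc was 6.96-fold lower in jejunum (log2 difference -2.80, SE 0.44, adjusted p 4.39e-08 by edgeR). Utp20, a scaffold of the small subunit processome, and Nop16, a large subunit factor, had the next largest differences (-2.76 and -2.35). The smallest called differences were those of Imp4, a processome subunit (-0.66), and Rrp1, a large subunit factor (-0.95). Polr1a and Polr1b, the large catalytic subunits of RNA polymerase I, differed by -1.61 and -2.25. Fibrillarin (Fbl), the methyltransferase of the box C/D particles, differed by -2.24 and its partner Nop56 by -1.71. Nucleolin (Ncl) and nucleophosmin (Npm1), abundant nucleolar proteins, differed by -1.77 and -1.50. Gnl3 (nucleostemin), Bop1 and Wdr12 were not called, with differences of -0.48, -0.25 and -0.43. Bop1 and Wdr12 are 2 subunits of the PeBoW complex of large subunit assembly, while the remaining subunit, Pes1, was called lower.

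Colon epithelium of untreated irradiated rats at day 4 had higher levels of most of these genes than that of non-irradiated rats. Of 38 members 35 were higher and 0 lower, where 46.9% of 13306 genes passed the test, 24.6% upward and 22.4% downward, and the median difference was 0.76, against 0.02 over all genes. Myc stood at 48.68, 48.73, 43.78, 65.08, 59.98 and 81.91 CPM, above every non-irradiated colon library, and was 3.00-fold higher (1.59, SE 0.32, adjusted p 0.000176 by edgeR). It had the largest difference of the 38. The next were Rrp12, a late factor of small subunit export (1.20, SE 0.21), and Wdr12 (1.19, SE 0.19). All 3 polymerase I subunits were higher, Polr1a by 0.61, Polr1b by 0.63 and Polr1c, which polymerase III shares, by 0.28. All 3 box C/D proteins were higher (Nop56 0.88, Nop58 0.95, Fbl 0.57), and so were the 4 measured H/ACA proteins, which carry pseudouridylation, with their chaperone Nolc1 among them. Ncl rose by 0.71 (SE 0.19) and Npm1 by 0.81 (SE 0.20). The smallest called differences were those of Imp4 (0.26) and Polr1c. Nob1, the endonuclease that makes the end of 18S RNA (0.22), Pes1 (0.09) and Rrp1 (0.25) were not called. In bulk epithelium, more cells of a type and more RNA per cell cannot be told apart.

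In colon at day 7 the median difference from the non-irradiated level was larger. 37 of 38 were higher and 0 lower, where 63.6% of all genes were called, 32.8% higher and 30.8% lower, and the median difference was 1.13, against 0.02 over all genes. Rrp12 (1.72, SE 0.21) and Tsr1, a late small subunit factor (1.69, SE 0.18, 3.22-fold), had the largest differences. The smallest called were Imp4 (0.24) and Nop10, a small H/ACA protein (0.29), and Nob1 was not called (0.26, adjusted p 0.0877 by edgeR). Polr1a stood 0.75 and Polr1b 0.96 above the non-irradiated level, Nop56 1.20 and Fbl 1.04, and Ncl 1.33 and Npm1 1.40. In the plot of summed levels by group, the 38 biogenesis genes without Myc (37 of them with counts in more than 1 library) summed to 1170 ± 107 CPM (SD, n = 6) in non-irradiated colon, 1894 ± 238 at day 4 and 2537 ± 476 at day 7. Replicate 3 at day 7, with 1769 CPM, lay within the range of day 4, and the other 5 libraries, from 2207 to 2988 CPM, lay above every day 4 library.

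**Figure D1:**
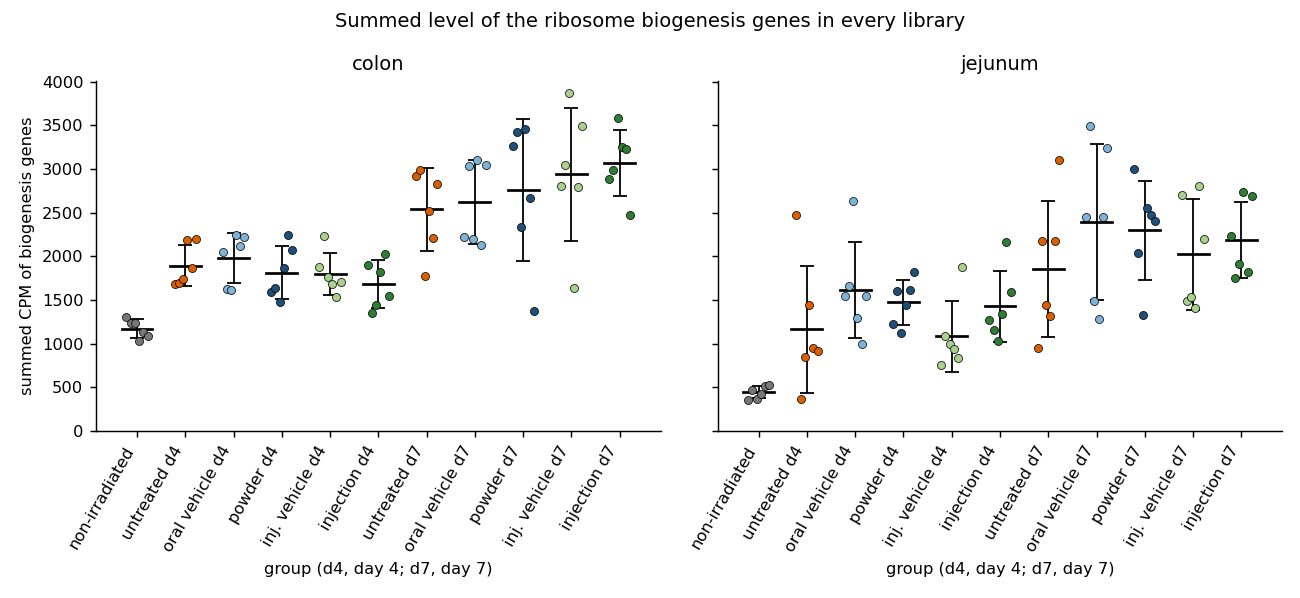
Summed CPM of the ribosome biogenesis genes without Myc (y axis, linear) in each of 6 libraries (points) of every group (x axis), with the mean (wide bar) and SD (error bar), for colon and jejunum. Non-irradiated libraries lie at 1031 to 1307 CPM in colon and 358 to 524 CPM in jejunum, and 1 jejunum library of untreated rats at day 4 lies at 365 CPM.

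Myc had a lower mean in colon at day 7 than at day 4. At day 7 it stood at 50.08, 72.63, 20.23, 29.16, 23.59 and 33.08 CPM. The lower libraries overlapped the non-irradiated ones, and the group was 1.96-fold above them (0.97, SE 0.32, adjusted p 0.00791 by edgeR). Without replicate 2, the highest library, the difference was 0.66 and was not called (adjusted p 0.0629 by edgeR). Myc at day 7 differed from day 4 by -0.61 (SE 0.32, adjusted p 0.127 by edgeR), which was called without replicate 2 of day 7 (-0.91, adjusted p 0.0186). In the fit of series 2 this difference was -1.32 (adjusted p 0.0278), and in that of series 1 it was -0.0046 (adjusted p 0.994 by edgeR).

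**Figure D2:**
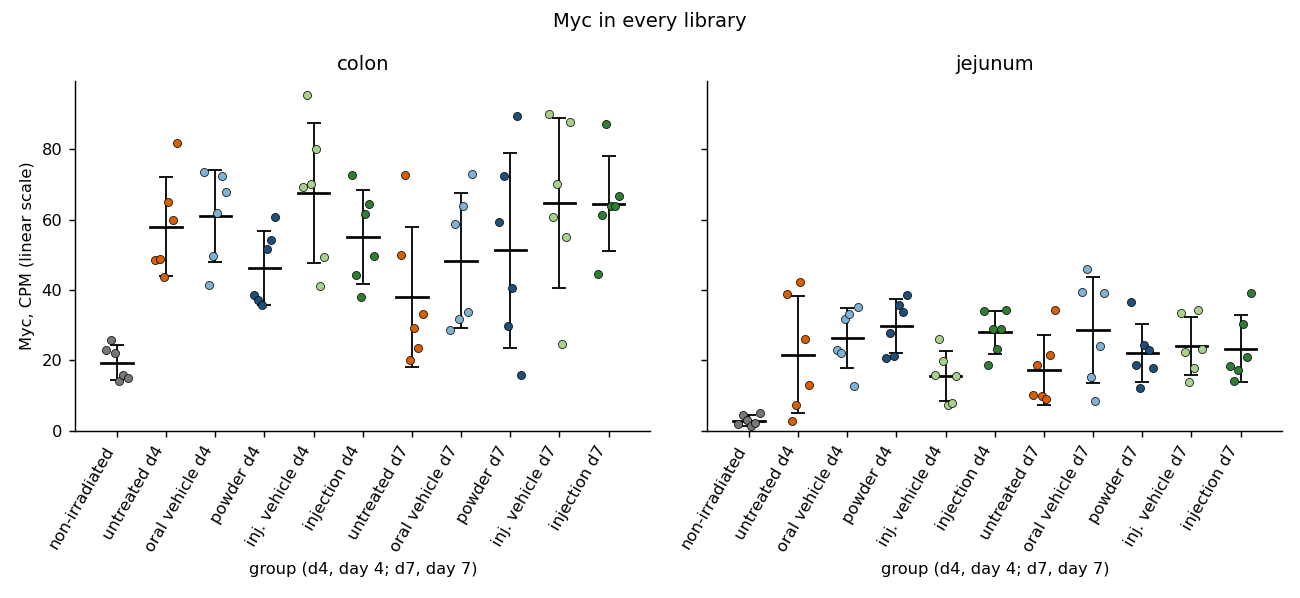
Myc level in CPM (y axis, linear) in each of 6 libraries (points) of every group (x axis), with the mean (wide bar) and SD (error bar), for colon and jejunum. Non-irradiated libraries lie at 14.2 to 25.9 CPM in colon and 1.24 to 4.95 CPM in jejunum, and group means of the irradiated groups at 38.1 to 67.6 and 15.5 to 29.7 CPM.

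Within the library series, the colon counts at day 4 were 13 members higher in series 1 (15.9% of all genes called) and 36 in series 2 (39.3%), each with 0 lower, and at day 7 33 (52.4%) and 34 (45.4%). Myc at day 4 was not called in series 1 (1.01, adjusted p 0.0784 by edgeR), nor at day 7 in series 2 (0.93, adjusted p 0.0707). The share of mitochondrial counts moved with irradiation in colon, from 10.4 to 14.2% of counts in non-irradiated libraries to 7.8 to 10.8% at day 4 and 3.24 to 4.82% at day 7. At day 7 its range did not overlap that of the non-irradiated libraries. With that share as a term of the fit, 22 members were higher at day 4 (21.4% of all genes called) and 0 were called at day 7 (2.03% of all genes called), with median differences of 0.57 at both times. The share and the irradiation cannot be told apart in colon at day 7. Single calls at day 4 rested on few libraries for Wdr75 and Imp4, which were not called without any of 5 libraries each. Imp4 at day 7 was called in 5 of 12 fits that left out 1 library, and Nop10 at day 7 was not called without replicate 6 of that group (adjusted p 0.0615 by edgeR).

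Jejunum epithelium of untreated irradiated rats at day 4 had higher levels of all 38 members, with 0 lower, where 43.9% of 12501 genes were called, 25% higher and 18.9% lower. The median difference was 1.6, against 0.05 over all genes. Myc stood at 38.92, 2.7, 7.28, 42.30, 26.05 and 12.91 CPM. Replicate 2 lay within the non-irradiated range and the other 5 lay above it, and the group was 7.24-fold higher (2.86, SE 0.49, adjusted p 2.66e-05 by edgeR). This was the largest difference of the 38, before Rrp12 (2.55, SE 0.40) and Pno1, a late small subunit factor (2.36, SE 0.40). Polr1c (0.53, SE 0.19) and Imp4 (0.60, SE 0.18) had the smallest. Polr1a was higher by 1.17 and Polr1b by 1.65, Nop56 by 1.89 and Fbl by 1.67, and Ncl by 1.39 and Npm1 by 1.58.

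The libraries of that jejunum group differed widely among themselves. Npm1 stood at 490.4, 48.60, 156.4, 221.6, 145.5 and 155.5 CPM, against 49.03 to 87.30 CPM in non-irradiated rats. Fbl stood at 69.18, 3.57, 18.69, 32.66, 21.85 and 18.69 CPM, against 5.60 to 11.46 CPM. Replicate 1 was the highest and replicate 2 the lowest for both genes, and 1 member of 38, Noc3l, had groups that did not overlap, against 9.89% of all genes tested, 5.59% with the irradiated group higher. Replicate 1 also had the highest sum of 12 crypt proliferation markers (543.8 CPM) and replicate 2 the lowest (54.2 CPM), while the sum of 8 jejunal absorption genes was lowest in replicate 1 (35370 CPM) and highest in replicate 2 (136300 CPM). The part of the makeup of these libraries in the result was not tested. Without replicate 2, 38 members were called higher (47.7% of all genes called). Without replicate 1, 35 were (36%): Polr1a (adjusted p 0.0531 by edgeR), Polr1c and Imp4 lost their calls. Series 1, which holds both libraries, by itself gave 22 members higher (14.8% of all genes called), and series 2 gave 33 (43.5%).

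At day 7 all 38 members were higher in jejunum, with 0 lower, where 58.8% of all genes were called, 31.3% higher and 27.4% lower, and 37 of 38 had groups that did not overlap, Imp4 being the exception, against 26.5% of all genes tested, 15.8% with the irradiated group higher. The median difference was 2.32, against 0.02 over all genes. Npm1 stood at 180.1, 416.7, 263.3, 228.1, 413.0 and 595.1 CPM and Fbl at 28.03, 79.95, 39.97, 37.35, 65.50 and 100.9 CPM, every library above every non-irradiated one. Rrp12 was 8.32-fold higher (3.06, SE 0.41) and Pno1 8.22-fold (3.04, SE 0.41), the largest differences of the 38. Imp4 (0.66) and Polr1c (0.99) had the smallest. Polr1a differed by 1.74, Polr1b by 2.42, Nop56 by 2.30, Fbl by 2.78, Ncl by 2.54 and Npm1 by 2.37. Myc, at 10.19, 18.74, 9.96, 9.07, 21.50 and 34.45 CPM, was 5.81-fold higher (2.54, SE 0.49, adjusted p 4.93e-05 by edgeR). The 38 calls stood in each of the 12 fits that left out 1 library, and with the mitochondrial share as a term. The jejunal absorption genes summed to 12740 to 61210 CPM at day 7, below every non-irradiated jejunum library, with 3 of the 8 called lower and 0 higher. The part of that makeup in the result was not tested.

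**Figure D3:**
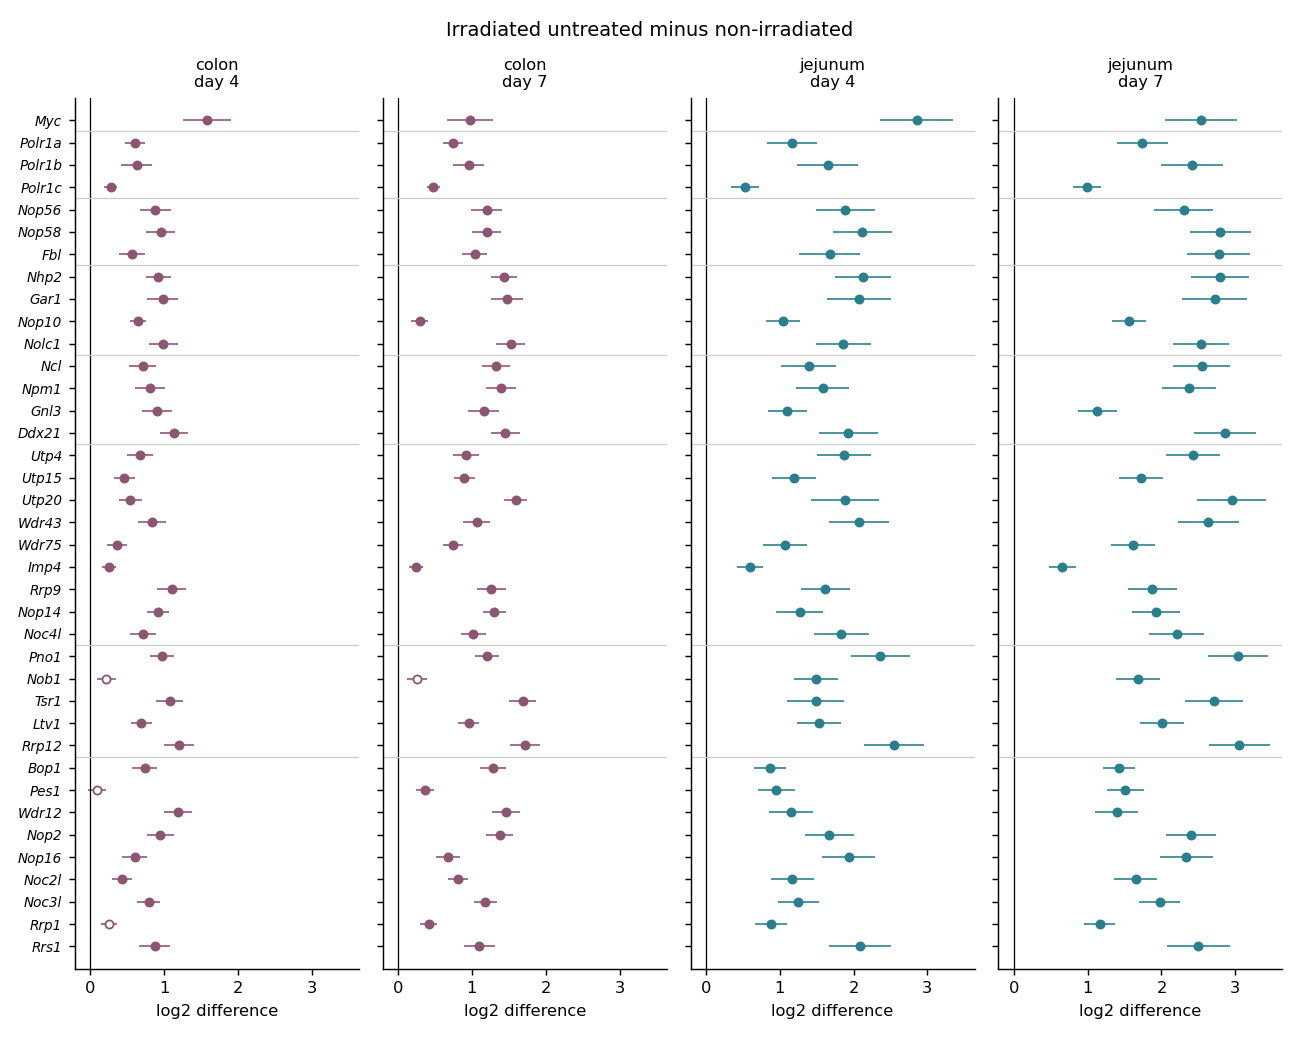
Log2 difference (x axis) of untreated irradiated from non-irradiated rats for Myc and 37 biogenesis genes (y axis, ordered by role with lines between roles), with the SE as a bar, filled where called at an adjusted p under 0.05 and open otherwise. All points lie at or above 0.09, and the open ones are Nob1, Pes1 and Rrp1 in colon at day 4 and Nob1 in colon at day 7.

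The size of the rise varied between the steps of the pathway. In colon at day 7 the median differences were 0.75 for RNA polymerase I, 1.20 for box C/D proteins, 1.46 for H/ACA proteins with Nolc1, 1.36 for nucleolar proteins, 1.02 for the small subunit processome, 1.21 for late small subunit factors and 1.10 for large subunit factors. In jejunum at day 7 they were 1.74, 2.78, 2.63, 2.46, 1.93, 2.71 and 1.65 in the same order. RNA polymerase I had the lowest median in colon, and polymerase I and large subunit factors the lowest in jejunum. These are 3 to 9 genes a role and were not tested against each other. The medians of members with an E-box in the promoter window and of members without one were 1.16 (n = 13) and 1.20 (n = 21) in colon at day 7 and 2.40 and 2.21 in jejunum at day 7.

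The difference of the irradiation effect between the tissues was tested as an interaction on the log2 scale. It compares ratios to each tissue's own non-irradiated level, not rises in CPM. At day 7, 33 of 38 members rose more in jejunum than in colon on this scale and 0 less. In this contrast 39.4% of 13741 genes were called, 25.3% higher and 14.1% lower. The median difference between the tissues' effects was 1.21, against 0.18 over all genes. Pno1 (1.93, SE 0.42) and Fbl (1.82, SE 0.44) had the largest differences, and Imp4 (0.50) and Polr1c (0.60) the smallest called. Myc was among those called (1.67, SE 0.57, adjusted p 0.0157 by edgeR), with Polr1a (1.09), Polr1b (1.55), Nop56 (1.19), Ncl (1.30) and Npm1 (1.07). Myc was not called within series 1 (1.16, adjusted p 0.297 by edgeR) or series 2 (1.99, adjusted p 0.0551). Gnl3, Rrp9, Nop14, Bop1 and Wdr12 were not called. At day 4, 15 of 38 were called, all rising more in jejunum on the log2 scale, where 21.5% of all genes were called, 13.5% higher and 8.06% lower. Pno1 (1.46) and Utp20 (1.42) had the largest differences there and Rrp1 (0.68) and Ltv1, which acts in small subunit export (0.90), the smallest called. Fbl was called (1.17), while Myc (1.36, adjusted p 0.0752 by edgeR), Polr1a (0.63), Polr1b (1.08), Nop56 (1.07), Ncl (0.74) and Npm1 (0.84) were not. The sums of the biogenesis genes in the irradiated groups overlapped between the tissues at day 7, at 951.7 to 3102 CPM in jejunum and 1769 to 2988 CPM in colon. From non-irradiated to day 7, the mean sum went from 442.1 to 1858 CPM in jejunum and from 1170 to 2537 CPM in colon. Within series 1, 7 members were called at day 7 (28.6% of all genes called) and 7 at day 4 (11.6%), and within series 2, 15 (24.7%) and 0 (14.5%). The day 4 count moved with other settings as well. It was 2 with the mitochondrial share as a term (16.2% of all genes called) and 6 without scaling factors (18.6%). It was 3 with the library number, which a colon and a jejunum library share, as a block. Myc then differed by 0.99 (adjusted p 0.221 by edgeR). Without replicate 2 of untreated jejunum the count was 27, Myc among them (1.59, adjusted p 0.024 by edgeR), where 25.5% of all genes were called. That library was picked for its low levels of these genes, and leaving it out raises the jejunum effect. No fit of this contrast left out replicate 1, the highest for Npm1 and Fbl. In jejunum at day 4 against non-irradiated rats, the members' median was 1.79 without replicate 2 and 1.12 without replicate 1. The count of 27 therefore cannot decide how large the tissue difference is.

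From day 4 to day 7 the biogenesis genes were followed in separate groups of irradiated rats, untreated and injected vehicle, that share no library. In colon of untreated rats 14 of 38 members were higher at day 7 and 1 lower, where 36.5% of all genes were called, 18% higher and 18.5% lower. Utp20 had the largest rise, from 23.15 to 49.78 CPM (1.05, SE 0.15, adjusted p 3.74e-06 by edgeR), followed by Ncl (0.62, SE 0.19), and Nop10 was the gene that fell (-0.35, SE 0.11). Npm1 (0.59) and Fbl (0.47) were called, and Polr1a (0.14), Polr1b (0.33) and Nop56 (0.32) were not. In colon of rats given injected vehicle 30 of 38 were higher and 0 lower, where 27.3% of all genes were called, 15.9% higher and 11.3% lower. Ncl (0.97, SE 0.19) and Utp20 (0.95, SE 0.16) led, and Polr1a (0.50), Polr1b (0.94), Nop56 (0.71), Fbl (0.85) and Npm1 (0.88) were called. Myc was not called in this group (-0.08, SE 0.25, adjusted p 0.836 by edgeR). The untreated count was 7 to 20 when single libraries were left out, lowest without replicate 1 of day 7 (33.7% of all genes called), and 17 in series 1 (30.4%) against 2 in series 2 (22.5%). The mitochondrial share moved with day here too, and with it as a term 0 members were called in untreated colon, where 4.28% of all genes were, and 2 in injected vehicle colon, where 8.86% were.

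In jejunum of untreated rats 7 of 38 members (18.4%) were higher at day 7 and 0 lower. Of all genes 41% were called, 20.3% higher and 20.6% lower, so the share of members higher was near that of all genes. Tsr1 (1.23, SE 0.37) and Ncl (1.15, SE 0.37) had the largest rises, with Fbl (1.10), Utp20, Noc3l, Bop1 and Polr1c the other genes called. Myc (-0.32), Polr1a (0.57), Polr1b (0.77), Nop56 (0.42) and Npm1 (0.79) were not called. The count depended on single libraries. It was 32 without replicate 1 of day 4 (48.1% of all genes called) and 2 without replicate 2 of day 4 (32.1%). It was also 2 without replicate 3 (41.4%), 5 (33.8%) or 6 (35%) of day 4, or without replicate 2 of day 7 (33.6%). Without replicate 6 of day 7, the library with the highest sum of biogenesis genes there (3102 CPM), the count was 1 (31.7%). The fit of series 1 gave 0, where 1.27% of all genes were called, and that of series 2 gave 19, where 44.5% were. In jejunum of rats given injected vehicle 32 of 38 were higher and 0 lower, where 50.6% of all genes were called, 25.4% higher and 25.1% lower. Fbl (1.38, SE 0.29) and Ncl (1.27, SE 0.31) led, and Polr1a (0.73), Polr1b (1.26), Nop56 (0.90) and Npm1 (1.13) were called. Myc was not (0.63, SE 0.30, adjusted p 0.0834 by edgeR), but was called without replicate 2 of day 4 (0.84, adjusted p 0.0277) or without replicate 3 of day 7 (0.75, adjusted p 0.0415). With the mitochondrial share as a term, 29 members were called in untreated jejunum, where 44.4% of all genes were, and 6 in injected vehicle jejunum, where 21.2% were.

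**Figure D4:**
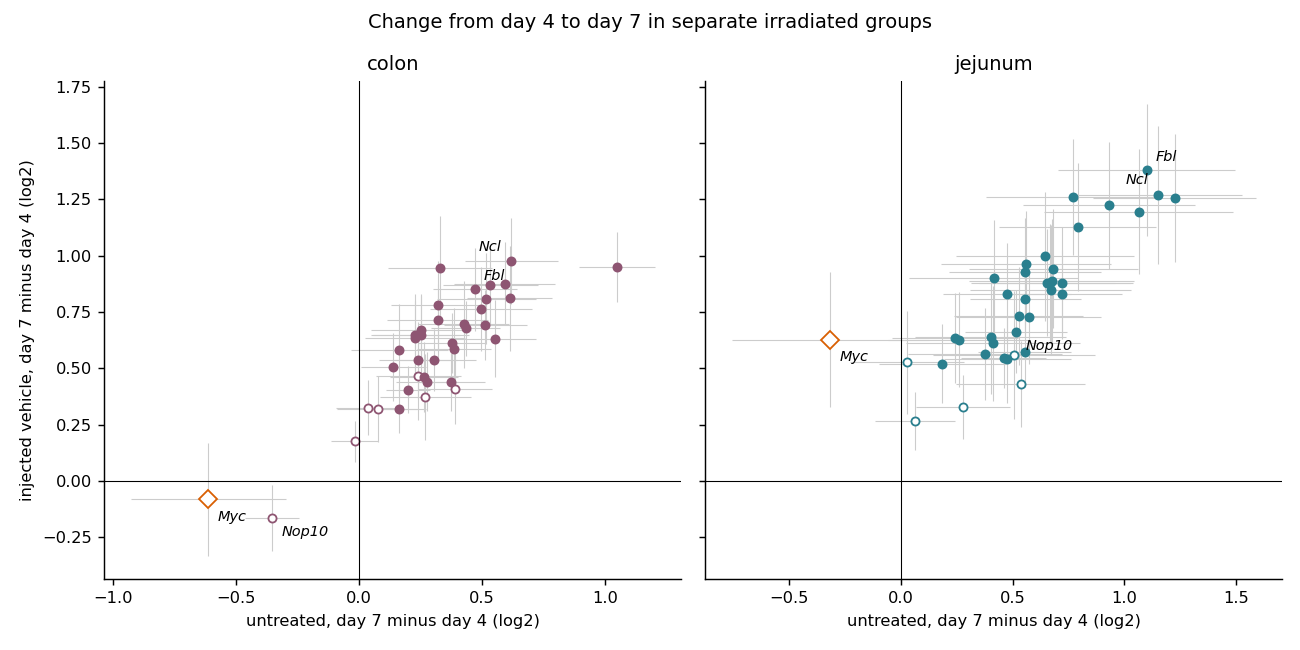
Log2 difference of day 7 from day 4 in untreated rats (x axis) and in injected vehicle rats (y axis), 1 point a gene with SE bars, filled where called in the injected vehicle comparison, for colon and jejunum; Myc is the orange diamond. In colon Myc lies at -0.61 and -0.08 and Nop10 at -0.35 and -0.16, and most other genes lie above 0 on both axes.

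The 2 preparations were set against their own vehicles to see whether either moved these genes. In each of the 8 comparisons 0 of the 38 members were called by edgeR and 0 by DESeq2. In colon with the powder at day 4, 11.8% of all genes tested were called, 4.93% higher and 6.91% lower. Of the members 0 were called there and 2, Tsr1 and Bop1, had an unadjusted p under 0.05, against 28.3% of all genes, while 35 of 38 differences were negative, with a median of -0.13 against 0.01 over all genes. Myc stood at 61.14 ± 13.0 CPM under oral vehicle and 46.32 ± 10.5 CPM under powder (SD, n = 6), a difference of -0.39 with a 95% interval of -1.01 to 0.22. Bop1 had the lowest adjusted p (0.14 by edgeR) and was called with only these 2 groups in the fit (-0.38, adjusted p 0.0367, with 7.34% of all genes called). In the other powder comparisons the shares of all genes called were 0% in colon at day 7 and 0.008% in jejunum at both days, and 0 members had an unadjusted p under 0.05, against 3.45% of all genes in colon at day 7 and 4.16% and 3.55% in jejunum at day 4 and day 7. The Myc differences were 0.11 (-0.50 to 0.72) in colon at day 7, 0.15 (-0.71 to 1.01) in jejunum at day 4 and -0.40 (-1.26 to 0.46) in jejunum at day 7.

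The injection was not followed by a called gene in any of its 4 comparisons, among the members or among all genes (0% called by edgeR). DESeq2 called 10 of all genes in jejunum at day 4 and 2 at day 7, with 0 members among them. In jejunum at day 4 all 38 differences were positive, with a median of 0.42 against 0.00 over all genes, and 10 members had an unadjusted p under 0.05, against 8.27% of all genes. Myc stood at 33.94, 18.71, 28.81, 23.31, 29.01 and 34.44 CPM with the injection and at 16.00, 26.04, 19.86, 7.27, 8.02 and 15.72 CPM with its vehicle. The ranges overlapped, and the difference of 0.89 had a 95% interval of 0.30 to 1.48 and an adjusted p of 0.583 by edgeR. Fbl differed there by 0.49 (-0.07 to 1.06), Nop56 by 0.58 (0.08 to 1.08), Polr1a by 0.47 (0.07 to 0.87) and Polr1b by 0.75 (0.25 to 1.26). Ncl differed by 0.51 (-0.08 to 1.10) and Npm1 by 0.55 (-0.00 to 1.09). These intervals are not adjusted for the number of genes tested. Crypt proliferation markers summed to 124.8 to 481.0 CPM with vehicle and 156.0 to 567.1 CPM with the injection, and 0 of the 12 were called. In the remaining injection comparisons 0 members had an unadjusted p under 0.05, against 3.55% and 1.73% of all genes in colon at day 4 and day 7 and 2.79% in jejunum at day 7. The Myc differences were -0.29 (-0.78 to 0.20) in colon at day 4, 0.00 (-0.49 to 0.50) in colon at day 7 and -0.05 (-0.63 to 0.53) in jejunum at day 7.

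**Figure D5:**
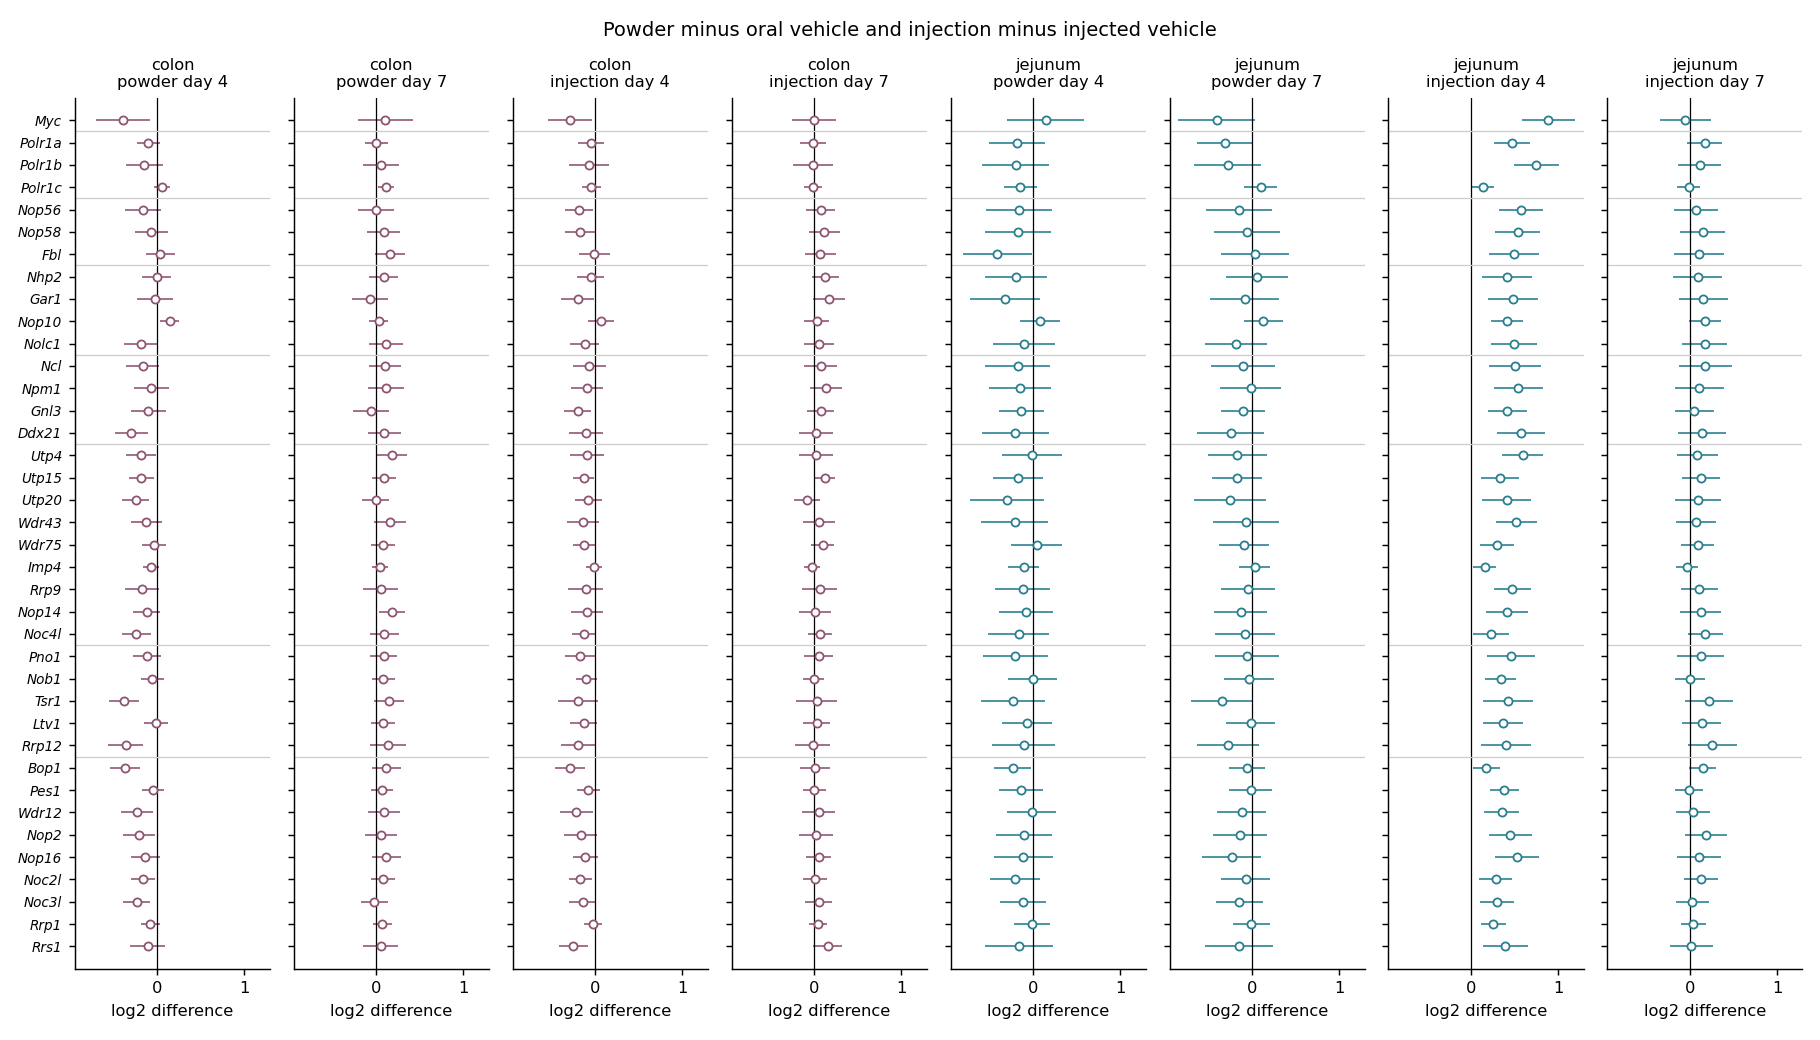
Log2 difference (x axis) of powder from oral vehicle and of injection from injected vehicle for the 38 genes (y axis, ordered by role), with the SE as a bar, in 8 comparisons; all points are open, as none was called. Differences run from -0.41 to 0.89, and all 38 lie above 0 for the injection in jejunum at day 4.

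Oral vehicle was also set against untreated rats, and 0 of 38 members were called in the 4 comparisons by edgeR or DESeq2, with 0% of all genes called in both tissues at day 4, 0.00752% in colon at day 7 and 0.008% in jejunum at day 7. In jejunum all 38 differences were positive at both days, with medians of 0.39 at day 4 and 0.40 at day 7. Replicate 2 of the untreated day 4 group, described above, is part of the first of these, and without it the median at day 4 was 0.21 and 0 members were called. An unadjusted p under 0.05 was found for 1 member in colon at day 7, Utp20 (-0.33), against 4.84% of all genes, and for 1 in jejunum at day 7, Gnl3 (0.63), against 4.66%. At day 4 it was found for 0 members, against 2.8% of all genes in colon and 9.18% in jejunum.

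Genes of the same pathway outside the 40 were read from lists chosen with results of these data known. The counts stand against the shares of all genes called higher and lower in the same comparisons, 24.6% and 22.4% in colon at day 4, 32.8% and 30.8% at day 7, 25% and 18.9% in jejunum at day 4 and 31.3% and 27.4% at day 7. Of 101 other biogenesis genes tested, 56 were higher and 4 lower in colon at day 4, 72 and 5 at day 7, 81 and 2 in jejunum at day 4 and 82 and 4 at day 7. Rrn3, which brings polymerase I to its promoter, rose in colon at day 4 (0.79) and in jejunum at day 4 (1.43). Nop53 fell in all 4 comparisons, by 0.76, 0.82, 0.63 and 0.38 in that order. Zfp622 and Utp11 fell in colon at both days, Ubtf at day 4, Rrp7a and Riok3 at day 7, and in jejunum Rexo4 fell at both days and Eif6 and Polr1h at day 7. These falling genes, and Nop53 at day 7, were named after their values were seen.

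Genes for the ribosome's own proteins had smaller median differences than the factors that build it. Of 63 cytosolic ribosomal protein genes tested, 5 were higher and 8 lower in colon at day 4 (median 0.05), 26 and 6 at day 7 (0.19), 10 and 0 in jejunum at day 4 (0.39), and 57 and 1 in jejunum at day 7 (1.12). The counts in colon at day 4 and in jejunum at day 4 lay below the shares of all genes in both directions, and of the higher counts that in jejunum at day 7 lay furthest above its share (31.3%). Rpl19 rose in colon at day 4 (0.45) and in jejunum at day 4 (0.71). At day 7 Rps2 rose in colon (0.93) and Rpl4 in jejunum (1.56). The single gene that fell in jejunum at day 7 was Fau, named after its value was seen. Without irradiation, 58 of the 63 were lower in jejunum than in colon and 1 higher. Ribosomal protein genes and Npm1 are known to have many processed copies in the genome, and how reads that fit several copies were counted is not given in the sources used here.

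Partners and relatives of Myc were fewer. Of 11 tested in colon, 4 were lower at both days and 0 higher, where 22.4% and 30.8% of all genes were lower, so the count at day 7 is near that share. The 4 were Mxi1 and Mxd4, which compete with Myc for Max, Mlxip, a partner of Mlx, and Mycl, a Myc relative. Mxi1 fell by 1.23 at day 4 and Mxd4 by 0.98 at day 7. Of 9 tested in jejunum, Mycl and Mxd4 were lower at day 4, where 18.9% of all genes were, and Max (-1.39), Mxd1 (-1.68), Mxd4 (-1.16) and Mxi1 (-0.98) were lower at day 7, where 27.4% of all genes were, while Mlxip was higher (0.53). Max itself, which Myc needs to bind DNA, was not called in colon (0.09 at day 4 and -0.24 at day 7). Mxi1, Max in colon and Mlxip in jejunum were named after their values were seen, as was Mxd4 at day 4 in colon.

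Of 29 other genes listed as Myc targets, 20 were higher and 3 lower in colon at day 4, 24 and 1 at day 7, 21 and 1 in jejunum at day 4 and 26 and 1 at day 7. Of all genes 24.6% and 22.4%, 32.8% and 30.8%, 25% and 18.9% and 31.3% and 27.4% were higher and lower in the same order. Ccnd2, cyclin D2, rose by 4.37 in colon and by 2.98 in jejunum at day 4. Nme1, a nucleotide kinase, rose by 1.72 and 2.29 in colon at day 4 and day 7, and Tfrc, the transferrin receptor, by 3.57 in jejunum at day 7. Odc1, ornithine decarboxylase, fell in colon by 0.40 and 0.64 at day 4 and day 7. The other genes that fell were Slc16a1 and Phb2 in colon at day 4, Slc3a2 in jejunum at day 4 and Ldha in jejunum at day 7. Odc1 and these 4 were named after their values were seen.

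Free ribosomal proteins are known to hold Mdm2 away from p53 when ribosome assembly fails. Mdm2 and Cdkn1a, both of which p53 is known to raise, were higher at day 4 in colon (1.57 and 1.35) and in jejunum (0.88 and 0.70). At day 7 both were still higher in colon (0.75 and 0.52) and both were lower in jejunum (-0.37 and -0.61). Rpl5 and Rpl11, the ribosomal proteins of this relay, were higher in jejunum at day 7 (1.39 and 1.23), and in colon at day 4 Rpl5 was lower (-0.32). The part of this relay in the Mdm2 and Cdkn1a differences was not tested.

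Markers of dividing crypt cells moved with the biogenesis genes. Of 12 crypt proliferation markers, 9 were higher in colon at day 4, 11 at day 7, 9 in jejunum at day 4 and 12 at day 7, with 0 lower, and 12 were lower in non-irradiated jejunum than in colon. Their summed level ran from 199.9 to 372.6 CPM in non-irradiated colon, 382.5 to 526.2 at day 4 and 703.8 to 1205 at day 7. In jejunum it ran from 66.3 to 129.6 CPM, 54.2 to 543.8 and 291.2 to 1006 in the same order. None of the 12 was at 0 in these groups. The shares of all genes called higher and lower were 24.6% and 22.4% in colon at day 4 and 32.8% and 30.8% at day 7. In jejunum they were 25% and 18.9% at day 4 and 31.3% and 27.4% at day 7. Between the non-irradiated tissues 41.6% of all genes were lower in jejunum. The marker counts of this paragraph, many of them of few genes, stand against these shares. Markers of other cell types also moved in colon: 6 of 6 fibroblast genes were higher at both days, with summed levels of 4.29 to 10.99 CPM without irradiation, 25.15 to 86.28 at day 4 and 11.30 to 214.5 at day 7, and all 4 tested neutrophil genes of 5 were higher, from 0.26 to 1.20 CPM to 6.48 to 97.07 and 17.88 to 38.44 CPM. No fibroblast or neutrophil marker was at 0 in all libraries of these colon groups. In jejunum 0 fibroblast genes were called at day 4 and 3 were higher at day 7, and 5 of 6 crypt base markers were higher at day 7. Of the neutrophil markers S100a8, S100a9 and Cxcr2 were at 0 in non-irradiated jejunum and Mmp8 at day 4. Markers of immune cells were lower in part. Of 4 T cell genes in the files, 3 were tested in each tissue. In colon 0 were called at day 4 and 2 were lower at day 7, with summed levels of 1.63 to 4.88 CPM without irradiation and 0.30 to 0.63 CPM at day 7. In jejunum all 3 tested were lower at both days, from 1.82 to 25.90 CPM to 0.62 to 4.66 and 0.04 to 0.56 CPM. Of 4 B and plasma cell genes tested in colon, 3 were lower at day 4 and 4 at day 7, with a summed level of 10.17 ± 12.6 CPM without irradiation and 0.75 ± 0.45 CPM at day 7 (SD, n = 6), and the 1 tested in jejunum was lower at both days. Mzb1 was at 0 in untreated jejunum at day 4 and Ms4a1 at day 7. Of 6 macrophage genes tested in colon, 4 were higher at day 4 and 3 at day 7, while of 5 tested in jejunum 2 were lower at day 4 and 4 at day 7. The non-irradiated jejunum libraries, the reference of these comparisons, differed by series in the macrophage sum, at 38.89 to 80.43 CPM in series 1 and 2.575 to 4.781 CPM in series 2, and in the T cell sum, at 23.52 to 25.90 and 1.818 to 4.796 CPM. Smooth muscle genes were not called in colon, and 3 of 6 were higher in jejunum at both days. The part of dividing, fibroblast, muscle or immune cells in the biogenesis result was not tested.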

How the data were processed

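RNA was measured in 132 rat libraries, and their values were read from 2 tables of raw counts per gene symbol that the authors deposited, with no normalization. Per the submitters' processing notes the reads were aligned with STAR 2.7.10a to mRatBN7.2. The sources used here do not name the counter, the annotation or the strand setting. All 168 columns matched a label, and 36 libraries that stand in both tables with identical counts were used once. No pair of libraries in a group agreed within sampling noise.

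Groups come from the labels. edgeR 4.0.16 (R 4.3.3) gave TMM factors, the filterByExpr filter by group and quasi-likelihood F tests with robust dispersion, Benjamini-Hochberg adjusted over all genes tested. Colon and jejunum were fitted apart, with 42 libraries each and library series as a term, or 24 each for the injected groups, which are all of series 3. Comparisons of tissues used 84 libraries. Intervals of 95% assume a normal error. The code was tested on simulated counts. The precision is set by 6 libraries a group.

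Named were, in each comparison, Myc, Polr1a, Polr1b, Nop56, Fbl, Ncl, Npm1 and the 2 called members with the largest rise and fall, which here are the 2 largest and 2 smallest differences where all members moved alike, and up to 2 genes with the smallest p of each other list. The members and lists were chosen with earlier results of these data known. Alternatives were DESeq2 1.42.0, its size factors, no scaling factors, no filter, no series term, each series alone and only the 2 groups compared. Others were the mitochondrial share as a term and the replicate number, or between tissues the library number, as a block. Leaving out single libraries was chosen after seeing the data.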

Additional observations from a re-analysis of the deposited data

Results flagged for a closer look

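Myc, 6 biogenesis genes and the sum of the biogenesis genes were checked in all 22 groups for a library whose gap to its nearest neighbour exceeded Dixon's 95% critical value as a share of the group's range, 176 checks in all, of which 11 met the rule. Chance gives about 1 in 20, and the number that met the rule is near that share. The checks are not independent, since several genes share a library and the sum contains the 6 biogenesis genes. Replicate 6 of injected vehicle jejunum at day 4 was the highest of its group for Nop56 (56.56 CPM, the others 21.49 to 33.23), Fbl (58.07, the others 14.03 to 28.58), Ncl (228.3, the others 75.43 to 116.6), Npm1 (352.6, the others 107.8 to 172.1) and the sum (1873, the others 757.4 to 1092). Its sum of crypt proliferation markers, 481.0 CPM, was also the highest of its group, and its Myc, 15.72 CPM, was not. Without it 37 of 38 members, in place of 32, were called higher at day 7 than at day 4 in that tissue. The share of all genes called moved too, to 57.9% from 50.6%. Replicate 3 of oral vehicle jejunum at day 4 was the highest for Polr1b (20.19 CPM, the others 5.63 to 10.37), Fbl (95.33, the others 23.89 to 47.99) and Ncl (381.5, the others 122.2 to 214.4). In colon, replicate 2 of injected vehicle at day 4 was the highest for Polr1a (29.17 CPM, the others 19.42 to 22.38) and Nop56 (68.05, the others 53.80 to 58.91). Replicate 3 of untreated rats at day 7 was the lowest for Polr1a (18.76 CPM, the others 28.29 to 32.70).

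The irradiation effect differed between jejunum and colon by the interaction test, with an adjusted p under 0.05 by edgeR, for Fbl at day 4 (1.17 on the log2 scale) and at day 7 for Myc (1.67), Polr1a (1.09), Polr1b (1.55), Nop56 (1.19), Fbl (1.82), Ncl (1.30) and Npm1 (1.07). In each the rise on the log2 scale was larger in jejunum, where the non-irradiated level was lower.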

How the results depend on the processing

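In the 4 irradiation comparisons and the non-irradiated tissue comparison, the counts of members called stayed within 1.5 times and in direction under DESeq2, its size factors, no scaling, no filter and no series term, and in the 4 irradiation comparisons also with only the 2 groups compared, a fit not made for the comparisons of tissues. With the mitochondrial share as a term the count of called members was 22 for colon irradiation at day 4, 0 at day 7, 0 for untreated and 2 for injected vehicle colon over time, 29 and 6 for the same in jejunum, and 2 for the tissue difference at day 4. Series 1 alone gave 13 for colon irradiation at day 4, 22 for jejunum at day 4, 0 for untreated jejunum over time, and 7 and 7 for the tissue differences at day 4 and day 7. Series 2 alone gave 2 for untreated colon over time (1 higher, 1 lower), 19 for untreated jejunum over time, and 0 and 15 for the tissue differences. Without scaling factors the counts were 22 for untreated jejunum over time and 6 for the tissue difference at day 4, and with only the 2 groups 0 for untreated jejunum over time and 1 for the powder in colon at day 4. Each series alone has 3 libraries a group in place of 6. Counts in this section stand without the shares of all genes called, so they do not show whether the members moved apart from the other genes. The other causes were not tested. The E-box share was 22.9% with the bases before the start only.

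In 0 of 23 pairs of groups did all 6 same-numbered libraries correlate above 0.1. These pairs of groups included colon and jejunum of untreated rats at each day. At most 3 of 6 libraries correlated best with their own number, in jejunum against colon of untreated rats at day 4 (median correlation 0.134). This rule cannot tell whether a shared library number marks the same rat, so pairing between the tissues was not settled. The block was the replicate number, or the library number in the comparisons of tissues. With it the tissue difference at day 4 had 3 members called in place of 15, and every other count stayed within 1.5 times. Leaving out single libraries gave 33 to 36 members for colon irradiation at day 4, 35 to 38 at day 7, 35 to 38 and 38 to 38 in jejunum, 7 to 20 and 1 to 32 for untreated colon and jejunum over time, and 21 to 35 and 26 to 37 for injected vehicle. Of the tissue difference at day 4 and of oral vehicle in jejunum at day 4, only the fit without replicate 2 of untreated jejunum was made, with 27 and 0 members called. The count for untreated colon over time moved by over 1.5 times without replicates 1, 2 or 5 of day 4 or 1, 2 or 6 of day 7, and that for untreated jejunum without any of 9 libraries, leaving replicate 4 of day 4 and replicates 3 and 4 of day 7 as the exceptions.

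Signs turned with the mitochondrial share as a term for 4 genes in untreated colon over time, none then called: Nop14 (-0.024), Tsr1 (-0.091), Rrp12 (-0.10) and Noc3l (-0.16). Myc turned sign where it was not called: with the mitochondrial share in colon under oral vehicle at day 4 (-0.001) and untreated jejunum over time (0.33), without scaling in injected vehicle colon (0.26) and untreated jejunum over time (0.073), with only the 2 groups in the injection in colon at day 7 (-0.0009), in series 1 alone for oral vehicle in colon at day 7 (-0.27) and powder in jejunum at day 4 (-0.15), in series 2 alone for oral vehicle in colon (-0.039) and jejunum (-0.013) at day 4 and powder in colon at day 7 (-0.22), without replicate 1 of untreated jejunum at day 4 (0.038, the range without single libraries being -0.617 to 0.038), and without replicate 2 of day 4 (0.048) or 4 of day 7 (0.086) of injected vehicle colon over time. Rrp1 turned in the tissue difference at day 4 in series 2 alone (-0.015). Without scaling factors the median of all genes shifted, most in non-irradiated jejunum against colon (-0.85 in place of -0.21) and jejunum irradiation at day 7 (0.53 in place of 0.02), where the members' median became 2.93.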
